A study of Saccharomyces cerevisiae with 3 samples.

Results

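The proteasome is the protease complex that degrades proteins tagged with ubiquitin. Its core particle is a barrel of alpha rings, which gate the entry, and beta rings, which hold the active sites. The regulatory particle caps the barrel and has a base, with a ring of ATPases that unfold substrates, and a lid, which removes ubiquitin. Most subunits are essential for growth in Saccharomyces cerevisiae, the budding yeast, and cells use the complex to degrade securin and cyclins in mitosis. The strains described here lack a gene of this complex or of a factor that builds, caps or regulates it. Members were chosen by gene symbol, as RPT, RPN, PRE or PUP with a number, or as SCL1, UMP1, BLM10, SEM1, ECM29, POC4, IRC25 or ADD66. The rule found 40 genes on 114 probes, out of 5325 named genes. By textbook knowledge, 27 are essential and 13 are not. RPN1, a scaffold of the base, was not among the annotated symbols and is not analysed here.

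The series screened for genetic interactions of CIN8, which encodes a kinesin-5 motor of the mitotic spindle. Per the labels, a pool of 5896 heterozygous diploid deletion strains was transformed with a cin8D::URA3 cassette and sporulated. Spores were plated on minimal medium (MM) with 5-fluoroorotic acid (5-FOA), which selects against URA3 and gave the pool of haploid single mutants, or on MM-Ura, which gave the pool of haploid double mutants. Both pools came from the same transformed diploids and were harvested after 2 days at 30 °C. The 3 arrays, experiments 1, 2 and 3, used 0.1, 0.15 and 0.2% 5-FOA, and each compared both pools by the abundance of 2 DNA tags per strain. Whether the experiments are separate transformations or sporulations is not in the labels, and the p-values below measure only how these 3 arrays vary, possibly for technical reasons.

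Values below are log2 ratios, averaged over the 2 tags of a strain, with the SD over the 3 arrays. The array carries the tags in 2 blocks of probes, named tag sets A and B here, and the median of each block was set to 0 on each array. The single-mutant tags were labelled with Cy5 and the double-mutant tags with Cy3, but the formula of the deposited ratio was not given in the sources used here. Signs are therefore those of the deposited values, without saying which pool either side stands for. As a marker of the sides, the strain lacking KIP1, the other kinesin-5 gene, stood at 4.99 ± 0.50 (SD, n = 3) and the strain lacking CIN8 itself at -2.23 ± 0.26.

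Among the nonessential members, all 4 called strains lacked subunits of the particle. RPN10 was called positive, and PRE9, SEM1 and RPN13 were called negative, so that 4 of 5 nonessential subunits were called. Of the 8 nonessential assembly or regulatory factors, 0 were called. An unadjusted p under 0.05 (limma) was found for 3 of them, against 2589 of all 5204 strains tested. Other settings called some factors. ECM29 was called in tag set A alone, ECM29 and RPN14 among strains with both tags on all arrays, and IRC25 without centring. No test compared subunits with factors, and the uncalled subunit, RPN9, lay nearer to 0 than the factors ECM29, RPN14 and IRC25. Of the 19 essential members tested, 15 lay below 0, against 2881 of all 5204 strains tested. The essential members had large differences between arrays and many empty values. Calls are strains with an adjusted p under 0.05 in limma (mean ratio against 0, Benjamini-Hochberg over 5204 strains). That threshold called 33.6% of all strains tested, 16.2% positive and 17.4% negative. Of the 40 members, 32 had a value on all 3 arrays and were tested, and 1 was called positive and 10 negative.

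**Figure D1:**
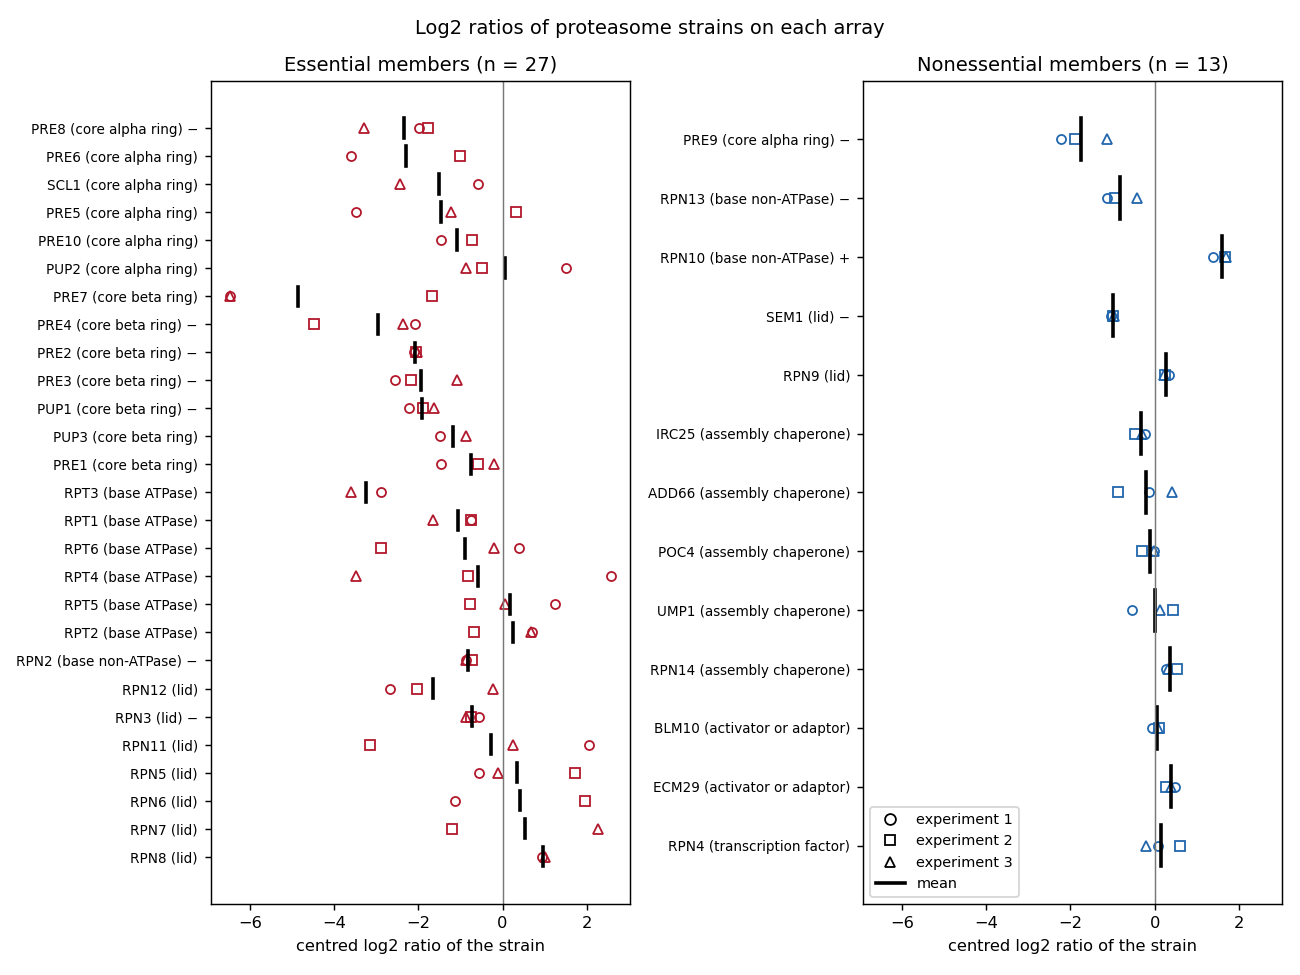
Centred log2 ratio (x axis) of each member on each array, with essential members in the left panel and nonessential members in the right. Open symbols are the 3 experiments, black bars the mean of the arrays with a value (2 arrays for the 8 untested members), and + or − after a name marks a limma call. The symbols of most nonessential members lie close together, while those of RPT4 run from 2.58 to -3.48.

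RPN10 encodes a receptor that binds ubiquitin chains at the regulatory particle. Its strain (YHR200W, chromosome VIII) had ratios of 1.39, 1.68 and 1.70 in experiments 1, 2 and 3. The mean was 1.59 ± 0.17 (SD, n = 3), or 3.01-fold from 0 (limma, adjusted p = 0.0117). Tag set A gave 1.18, 1.45 and 1.57, and tag set B gave 1.60, 1.91 and 1.83. All values were positive, and each tag was called alone. A test of tag set A alone called 34.6% of its strains (18.9% positive, 15.6% negative), and one of tag set B 33.2% (18.2% and 14.9%). RPN10 was printed with 6 spots per tag, and the SD among spots of a tag on an array ran from 0.098 to 0.23. It was the only member called positive in the mean of both tags, and it lay on the side of KIP1.

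PRE9 encodes the only core subunit that yeast can lose, an alpha-ring protein whose place another alpha subunit can take. Its strain (YGR135W, chromosome VII) had ratios of -2.22, -1.90 and -1.14, with a mean of -1.75 ± 0.55 (limma, adjusted p = 0.0240). Tag set A gave -2.14, -2.49 and -0.92, and tag set B gave -2.31, -1.31 and -1.36. Experiment 3 was nearest to 0 in the mean, and both tags were called.

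SEM1 encodes a small acidic protein of the lid that also belongs to other complexes, among them one for mRNA export. The ratios of its strain (YDR363W-A, chromosome IV) were -1.05, -0.98 and -0.96, with a mean of -0.998 ± 0.044 (limma, adjusted p = 0.0133). Its tag set A values were -1.02, -1.20 and -1.06, and tag set B gave -1.07, -0.76 and -0.87, from 6 spots per tag. SEM1 had the smallest spread of the 13 nonessential members, and both tags were called.

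RPN13 encodes a second ubiquitin receptor of the base. Its strain (YLR421C, chromosome XII) had ratios of -1.12, -0.94 and -0.41, with a mean of -0.82 ± 0.37 (limma, adjusted p = 0.0462). In tag set A it had -0.82, -1.58 and -1.05, and was called. Tag set B gave -1.43, -0.29 and 0.22, and was not called. The 2 ubiquitin receptors in this list thus lay on opposite sides of 0 on all 3 arrays, although for RPN13 the values of tag set B spanned 0.

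RPN9, which encodes a structural subunit of the lid, was the nonessential subunit without a call. Its strain (YDR427W, chromosome IV) had ratios of 0.33, 0.25 and 0.22, with a mean of 0.27 ± 0.056 (limma, adjusted p = 0.0949). Tag set A gave 0.30, 0.15 and 0.47, and tag set B gave 0.37, 0.34 and -0.018. RPN9 has 2 probes in each tag set, at neighbouring positions, and they did not give the same values. The first probe pair averaged -0.15 and the second 0.69. Only the second pair alone was called, and whether the pairs stand for different strains was not tested.

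**Figure D2:**
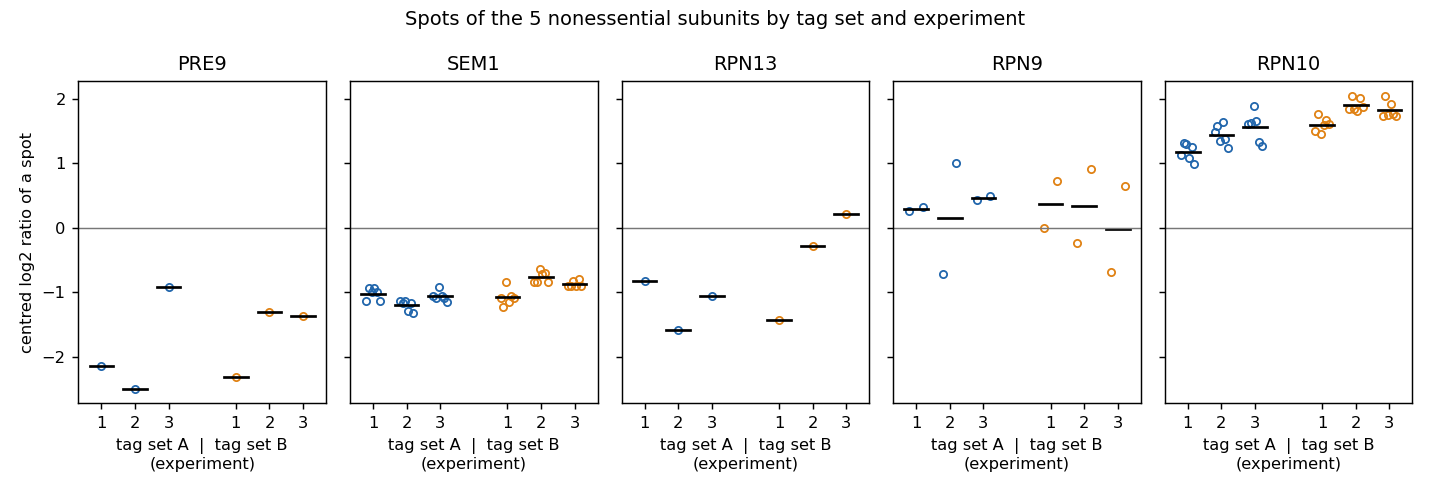
Centred log2 ratios (y axis) of every spot of the 5 nonessential subunits, by tag set and experiment (x axis), with black bars for the mean of the spots. PRE9 and SEM1 lie below 0 and RPN10 above 0 in both tag sets, while the spots of RPN9 lie on both sides.

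The nonessential factors outside the particle had a median of 0.024, against -0.82 for the 5 nonessential subunits and -0.097 for all strains tested. Their means ran from -0.33 to 0.38. The assembly chaperones put the rings together in order and leave before the particle is finished. IRC25 and POC4 encode partners in alpha-ring assembly. IRC25 had ratios of -0.24, -0.46 and -0.30, with tag set A at -0.16, -0.43 and -0.21 and tag set B at -0.33, -0.50 and -0.38 (mean -0.33 ± 0.12, adjusted p = 0.0788, limma). POC4 had ratios of -0.016, -0.30 and -0.021 (mean -0.11). Its tag set A values were 0.25, -0.43 and 0.28, and tag set B gave -0.29, -0.17 and -0.32. All 6 tag values of IRC25 were negative, and those of POC4 lay on both sides.

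ADD66 encodes an alpha-ring chaperone that works with PBA1. Its ratios were -0.13, -0.88 and 0.41, with tag set A at -0.60, -2.10 and 0.25 and tag set B at 0.34, 0.34 and 0.57 (mean -0.20). UMP1 encodes the factor that matures the beta rings and is then degraded by them. Its ratios were -0.55, 0.43 and 0.14, with tag set A at -0.70, 1.18 and 0.31 and tag set B at -0.39, -0.33 and -0.032 (mean 0.0058). The tag means of both strains had opposite signs, and experiment 2 in tag set A was the value farthest from 0 in each. RPN14, a chaperone of the base ATPases, had ratios of 0.26, 0.52 and 0.32, with tag set A at 0.41, 0.72 and 0.34 and tag set B at 0.11, 0.33 and 0.30. Its mean was 0.37 ± 0.14 (limma, adjusted p = 0.0721), and all 6 tag values were positive.

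BLM10 encodes an activator that caps the core in place of the regulatory particle, and ECM29 an adaptor that holds both particles together. BLM10 had ratios of -0.053, 0.092 and 0.087, with tag set A at 0.27, 0.24 and 0.26 and tag set B at -0.38, -0.059 and -0.092 (mean 0.042). ECM29 had ratios of 0.47, 0.27 and 0.39, with tag set A at 0.69, 0.46 and 0.67 and tag set B at 0.25, 0.079 and 0.11 (mean 0.38 ± 0.10, adjusted p = 0.0582, limma). ECM29 was positive in all 6 tag values and called in tag set A alone. RPN4 is not a subunit but encodes the transcription factor that raises the expression of proteasome genes. It had ratios of 0.080, 0.59 and -0.20, with tag set A at 0.18, 1.11 and 0.093 and tag set B at -0.016, 0.072 and -0.48 (mean 0.16). The value farthest from 0 was that of tag set A in experiment 2, whose 6 spots ran from 0.82 to 1.38.

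Essential members were compared with the nonessential ones because haploid cells without an essential gene do not grow. How abundant the tags of such strains were in either pool was not tested, since the values used here are ratios. Of the 27 essential members, 19 were tested. They had a median of -0.90, against 0.0058 for the 13 nonessential members. The essential members gave 0 positive and 7 negative calls (36.8% called), and the nonessential members 1 and 3 (30.8% called). Both shares were near the 33.6% of all strains. Negative calls alone were 36.8% and 23.1%, against 17.4% of all strains. By array, the medians of the tested members were -0.87, -0.83 and -0.87 for essential members in experiments 1, 2 and 3, and -0.053, 0.092 and 0.087 for nonessential members. The differences were -0.81, -0.92 and -0.95, with the same sign on all 3 arrays. No test was made over members, which are not replicates, and an exact sign permutation over 3 arrays cannot give a two-sided p below 0.25. Against the 5 nonessential subunits alone, the difference of the medians was -0.078, and its sign was not the same on all arrays. The medians of these subunits were -1.05, -0.94 and -0.41 in experiments 1, 2 and 3. The essential median thus lay above theirs in experiments 1 and 2 and below it in experiment 3.

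The spread over arrays was wider in essential members. The median SD was 1.01 in the 19 tested essential members, 0.16 in the 13 nonessential members and 0.23 in all strains tested. Essential members ranged from 0.035 to 3.04 and nonessential members from 0.044 to 0.65.

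Among the members, all empty values fell in essential genes. Counting 2 tags on 3 arrays per strain, essential members had 42 empty values of 162 (25.9%), nonessential members had 0 of 78, and all named strains had 1720 of 31950 (5.38%). By experiment, the essential members lacked 11, 19 and 12 of 54 values. The highest share was in tag set A of experiment 2, with 12 of 27 empty (44.4%), where all named strains had 407 of 5325 (7.64%). A total of 20 of the 27 essential members lacked at least 1 value, and 7 had both tags on all arrays. These 7 were PRE1, PRE2, PRE8, PUP2, RPN2, RPN12 and RPT1. Where a tag is missing on one array, the strain ratio rests on different tags on different arrays.

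**Figure D3:**
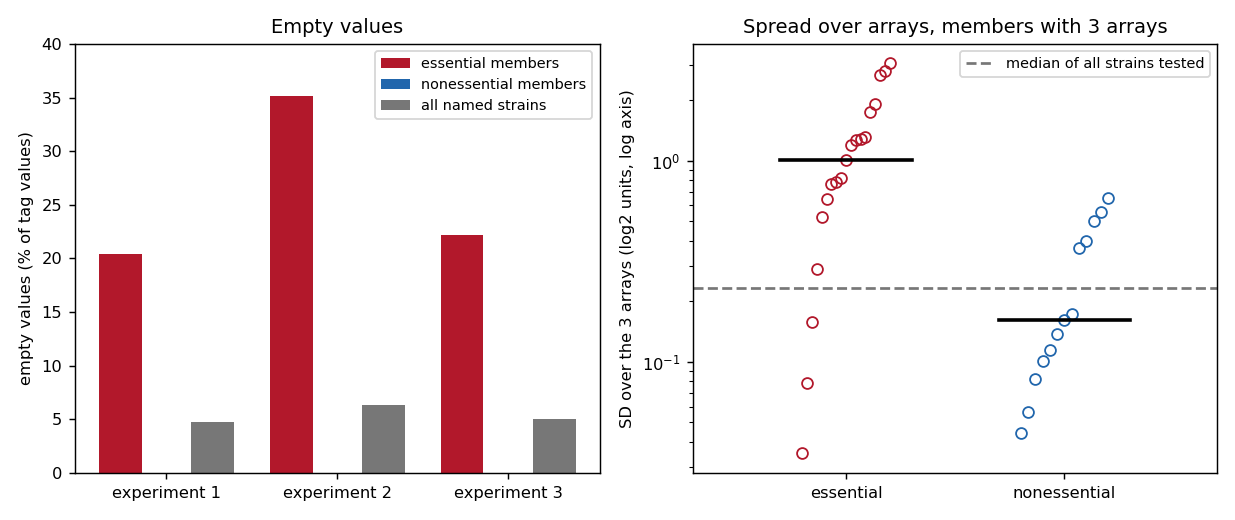
Left, the share of tag values that were empty (y axis, percent) in each experiment for essential members, nonessential members (0 in each) and all named strains. Right, the SD over the 3 arrays (log axis) of each tested member, with black bars for medians of 1.01 and 0.16 and a dashed line for all strains tested, at 0.23.

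The catalytic beta subunits were all called negative. PRE2, PRE3 and PUP1 encode the chymotrypsin-like, caspase-like and trypsin-like active sites. PRE2 had ratios of -2.11, -2.06 and -2.04, with a mean of -2.07 ± 0.035 (limma, adjusted p = 0.0086). Its tag set A values were -4.14, -4.49 and -3.48, and tag set B gave -0.083, 0.37 and -0.61. The small SD of PRE2 thus came with tags that stood far apart, and tag set A alone was called.

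PUP1 had ratios of -2.21, -1.88 and -1.63 (mean -1.91 ± 0.29, adjusted p = 0.0123, limma). Its tag set A values were -2.76 and -3.17, with no value in experiment 3, and tag set B gave -1.67, -0.59 and -1.63. PRE3 had ratios of -2.56, -2.18 and -1.08 (mean -1.94 ± 0.77, adjusted p = 0.0320, limma), with tag set A at -4.14, -1.97 and -1.08 and tag set B at -0.98 and -2.39, empty in experiment 3. All measured tag values of PUP1 and PRE3 were negative.

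The other beta-ring subunits have no active site. PRE4 had ratios of -2.07, -4.48 and -2.36, with a mean of -2.97 ± 1.32 (limma, adjusted p = 0.0378). In tag set A it had -2.07 in experiment 1 and -3.31 in experiment 3, and tag set B gave -4.48 in experiment 2 and -1.40 in experiment 3. PRE7 stood at -6.46, -1.67 and -6.48 (adjusted p = 0.0581, limma). Its values in experiments 1 and 3 came from tag set A at the lowest deposited ratio, 0.01, and that in experiment 2 from tag set B. Ratios were deposited in steps of 0.01, so that a value at the lowest ratio is coarse. The mean of PRE7, -4.87, is therefore approximate, and its SD is no measure of error. PRE1 stood at -0.75 ± 0.65 and was not called, and PUP3, empty in experiment 2, had -1.49 and -0.88 in the other two. All 7 beta-ring strains had a mean below 0, and 4 of the 6 tested were called (66.7%, against 33.6% of all strains). Of all 5204 strains tested, 2881 had a mean below 0.

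In the alpha rings, PRE8 joined PRE9 as a called strain. PRE8 had ratios of -1.98, -1.76 and -3.28, with a mean of -2.34 ± 0.82 (limma, adjusted p = 0.0266). In tag set A it had -1.65, -1.68 and -4.15, and tag set B gave -2.31, -1.83 and -2.40 and was called alone. PUP2 had ratios of 1.51, -0.48 and -0.86, with tag set A at -0.65, -1.32 and -0.083 and tag set B at 3.68, 0.36 and -1.63. Its tags had means of opposite sign, and the strain mean was 0.058 ± 1.28. PRE5 stood at -1.46 ± 1.90 without a call. PRE6, PRE10 and SCL1 were not tested. PRE6 had -6.46 (at the lowest ratio) and -0.12 in tag set A and -0.75 and -1.89 in tag set B in experiments 1 and 2. It had nothing in experiment 3, and its mean of -2.30 is approximate. PRE10 averaged -1.09 and SCL1 -1.52 over 2 arrays each.

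Of the 5 tested ATPase strains of the base, 0 were called, against 33.6% of all strains. An unadjusted p under 0.05 (limma) was found for 1 of them, against 2589 of all 5204 strains tested. These genes, RPT1 to RPT6, encode the ring that unfolds substrates and opens the gate of the core. RPT1 came closest, at -1.05 ± 0.53 (limma, adjusted p = 0.0514). It was called without centring, with the lowest ratio left out, and among strains with both tags on all arrays. RPT4 had 2.58, -0.83 and -3.48, the widest spread of all members, with tag set B alone in experiments 1 and 2 and tag set A alone in experiment 3. RPT2 had 0.70, -0.67 and 0.68, with tag set A at 3.23 and 1.08 in experiments 1 and 3 and tag set B at -1.83, -0.67 and 0.29. In both strains, the tags measured differed between arrays, and the means were -0.58 for RPT4 and 0.24 for RPT2. RPT6 stood at -0.90 ± 1.75 and RPT5 at 0.18 ± 1.01. RPT3 was empty in experiment 2. Its tag set A gave 0.69 and -0.72. Its tag set B was at the lowest ratio in experiments 1 and 3, so that the mean of -3.25 is approximate. With 2 arrays allowed, RPT3 was called negative.

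The essential scaffold and lid strains lay on both sides of 0. RPN2, a scaffold of the base, had ratios of -0.87, -0.73 and -0.87, with a mean of -0.82 ± 0.078 (limma, adjusted p = 0.0163). Its tag set A values were 0.74, -0.12 and -1.43 and its tag set B values -2.48, -1.35 and -0.30, so that the tags differed in every experiment while their mean varied little. RPN3 was the 1 called lid strain of the 4 essential ones tested, with ratios of -0.55, -0.75 and -0.86 (mean -0.72 ± 0.16, adjusted p = 0.0248, limma). In tag set A it had -0.46 and -1.02, with none in experiment 2, and tag set B gave -0.64, -0.75 and -0.71. All measured tag values of RPN3 were negative.

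RPN11 encodes the deubiquitinase of the lid. Its ratios were 2.06, -3.15 and 0.25 (mean -0.28 ± 2.65), a spread exceeded only by RPT4 and PRE7 among the members tested. RPN12 stood at -1.64 ± 1.26 and was not called. RPN5 had -0.55, 1.71 and -0.12, with tag set A at -0.050, 1.71 and -0.12 and tag set B at -1.05 in experiment 1 alone (mean 0.35). The other 3 lid strains were not tested. RPN6 had a value of -1.14 in tag set A of experiment 1 and of 1.97 in tag set B of experiment 2 (mean 0.41). RPN7 had -1.21 and 2.28 in experiments 2 and 3 (mean 0.54), and RPN8 had 0.93 and 1.01 in experiments 1 and 3. With 2 arrays allowed, RPN8 was called positive at 0.97, but in experiment 3 its tag set A gave 2.60 and its tag set B -0.59.

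The core had 6 called strains of 10 tested and a median of -1.93, and the regulatory particle 5 of 14 (35.7%, near the 33.6% of all strains) and a median of -0.65. Restricted to essential members, the medians were -1.94 in the core, with 5 of 9 called, and -0.65 in the regulatory particle, with 2 of 10 called. This difference was not tested.

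Each strain is measured by a pair of unrelated tags, which were compared where both had values on all arrays. Tag means had the same sign in 6 of 7 essential members, in 8 of 13 nonessential members and in 3138 of 4293 strains overall. All 5 nonessential subunits had tags of the same sign. The absolute difference between tags had a median of 1.11 in the 7 essential members, 0.38 in the 13 nonessential members and 0.33 over the 4293 strains. RPN10 was called positive by both tags, and PRE9 and SEM1 were called negative by both. Among the 4293 strains, 11.2% were called positive by both tags and 5.71% negative by both. No essential member was called by both tags (0 of 7 with both tags on all arrays).

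**Figure D4:**
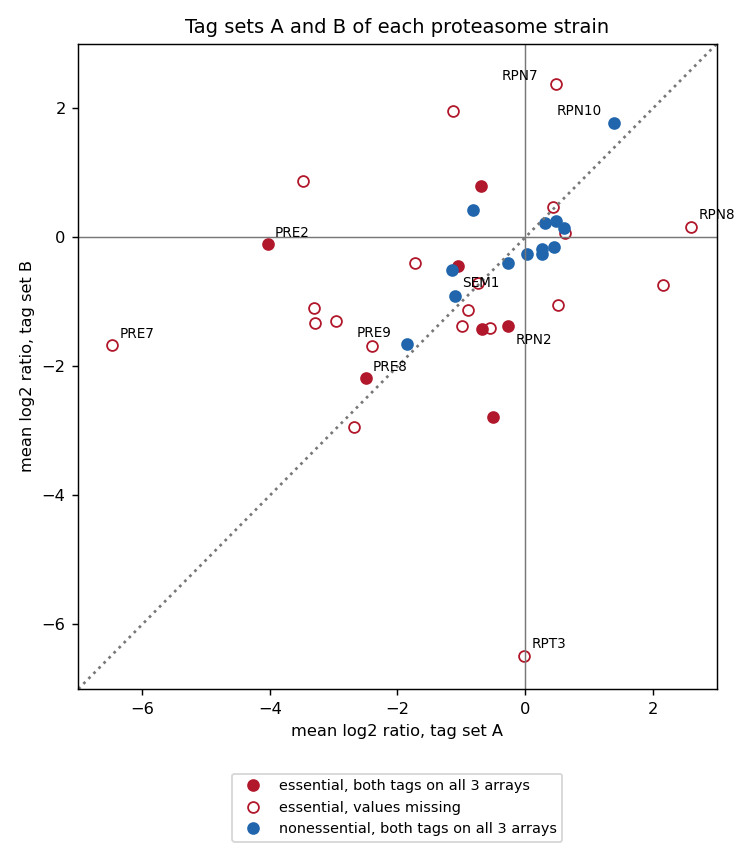
Mean log2 ratio in tag set B (y axis) against tag set A (x axis) for each member, with red for essential and blue for nonessential genes, filled where both tags were measured on all 3 arrays. The dotted line marks equal values. RPN10, SEM1 and PRE9 lie near it, while PRE2 and RPT3 lie far from it.

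Other complexes made of essential subunits were set beside the essential members. The lists were the chaperonin CCT, which folds tubulin and actin, the exosome core, which degrades RNA, and RNA polymerase II. Essential proteasome members had a median of -0.90, and these had medians of -0.74, -0.91 and -0.50. Means below 0 were found in 15 of 19 tested essential members and in 22 of 24 tested strains of the 3 lists. These included all 8 chaperonin strains. Of 24 strains tested in the 3 lists, 1 was called positive and 4 negative (20.8%, against 33.6% of all strains, and 16.7% negative, against 17.4%), with a median SD over arrays of 0.72. They lacked 31 of 162 tag values (19.1%). The strains called were CSL4 (1.90 ± 0.95) and MTR3 (-2.41 ± 0.58) of the exosome and CCT5 of the chaperonin. From the polymerase, RPO26 (-1.70 ± 0.73) and RPO21 (-0.63 ± 0.17) were called. CSL4 was called by tag set B (mean 2.84), while its other tag averaged 0.10 and was not tested. Tag set B did not call MTR3 (mean -1.67) or RPO21 (mean -0.21). Experiment 2 lacked the tag set A value of CSL4, MTR3, RPO26 and RPO21, so their ratios there came from tag set B. CCT5 stood at -2.94, an approximate value, since its tag set B was at the lowest ratio on all 3 arrays while its tag set A averaged 0.61. Among the nonessential polymerase subunits, RPB4 was called negative (-1.34 ± 0.17, with 1 value at the lowest ratio) and RPB9 (-1.66 ± 1.42) was not called.

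**Figure D5:**
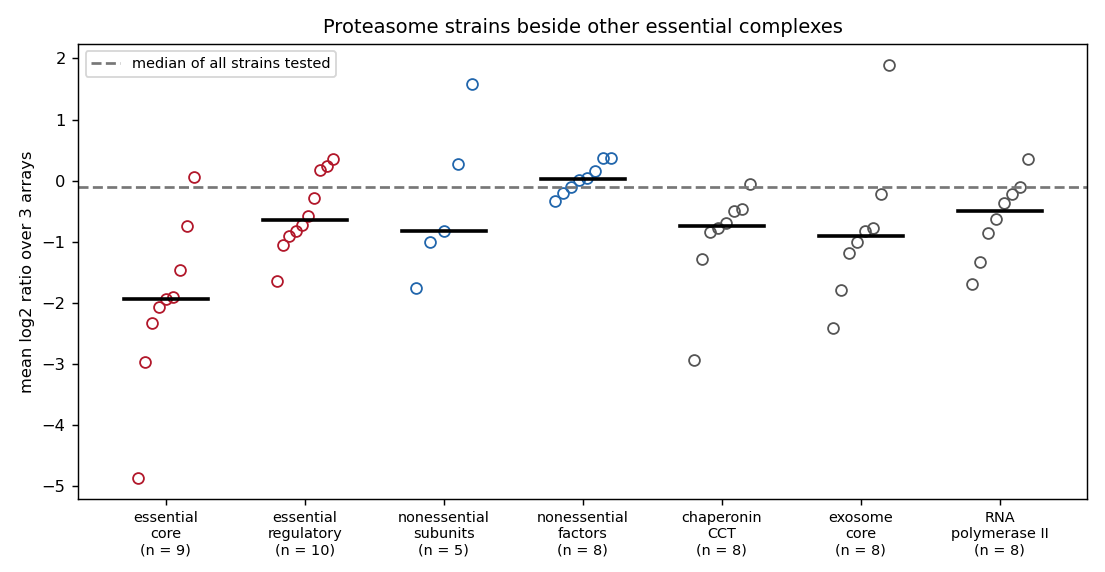
Mean log2 ratio over 3 arrays (y axis) of each tested strain in the proteasome groups and in 3 other complexes of essential genes, with black bars for medians. The dashed line is the median of all strains tested, -0.097. The nonessential factors lie closest to it.

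Of 7 further proteasome factors, all tested, 1 was positive and 1 negative (28.6% called, against 33.6% of all strains), with a median of 0.034. NAS6, a chaperone of the base, was positive (0.51 ± 0.10), beside RPN14 at 0.37, which was not called. Tag set A alone called NAS6 (mean 0.63), and tag set B did not (mean 0.39). PBA1, the partner of ADD66, was negative at -1.40 ± 0.0059, with tag set A at -0.14, -0.016 and 0.12 and tag set B at -2.67, -2.78 and -2.91. As for PRE2, a small SD came with tags far apart.

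In the list of shuttles and Cdc48 cofactors, which carry ubiquitinated proteins to the proteasome, 2 of 10 were positive and 2 negative (40% called, against 33.6% of all strains). SHP1, a Cdc48 cofactor, stood at 2.79 ± 0.58, and DDI1, a shuttle, at 1.18 ± 0.19, both called by both tags. UFD2, which extends ubiquitin chains, stood at -0.76 ± 0.092, called by both tags, and UFD1, an essential Cdc48 cofactor, at -0.71 ± 0.31. UFD1 was not called in tag set A (mean -0.48) and not tested in tag set B. The shuttles RAD23 (-0.16 ± 0.024) and DSK2 (0.085 ± 0.088) were not called. Of 16 tested genes for ubiquitin and its conjugation, 2 were positive and 3 negative (31.2% called, against 33.6% of all strains). The positive ones were CUE1, which recruits an E2 to the endoplasmic reticulum (0.70 ± 0.14), and UBI4, a polyubiquitin gene (0.60 ± 0.16). The negative ones were CDC34, an essential ubiquitin-conjugating enzyme (-1.07 ± 0.35), and the ubiquitin ligases UFD4 (-0.88 ± 0.16) and HRD1 (-0.58 ± 0.13).

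PRE1, RPN3 and PUP3 are on chromosome V, as CIN8 is, but on the other arm by their systematic names (YER012W, YER021W and YER094C, against YEL061C). All 3 had means below 0, at -0.75, -0.72 and -1.18. They are essential members, of which 15 of the 19 tested lay below 0. RPN3 was called, PRE1 was not called and PUP3 was not tested. Some members lie near each other. PRE4 and RPN12 on chromosome VI have 1 gene between them and stood at -2.97 and -1.64. RPT4 and RPN8 on chromosome XV also have 1 gene between them, and stood at -0.58 and 0.97.

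With only 2 arrays, no strain of the whole series passed the threshold, so that 0 members were called without experiment 1, 2 or 3 (limma), and 12, 13 and 13 had an unadjusted p under 0.05. The means of some called strains moved little. RPN10 stood at 1.53 to 1.69, SEM1 at -1.01 to -0.97 and PRE2 at -2.09 to -2.05. RPN2 stood at -0.87 to -0.80 and RPN3 at -0.81 to -0.65. For PRE2 and RPN2, these are means of tags that stood apart. Others moved more, such as PRE4 at -3.42 to -2.21. When the tag value nearer to 0 stood for a strain, the calls of PRE2, PRE3, PRE4, PRE9, PUP1, RPN2 and RPN13 were lost, and those of RPN10, SEM1, PRE8 and RPN3 were kept. With the 5-FOA percentage as a covariate, the calls of PRE2, PRE9, PUP1 and RPN10 were kept. The other 7 lost theirs at unchanged means, in a fit with 1 residual degree of freedom whose smallest adjusted p over all strains was 0.0469, and their own adjusted p values ran from 0.0507 to 0.0983.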

How the data were processed

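Per the labels' protocols, tags were amplified from genomic DNA, labelled and hybridised, and images were read with GenePix 5.1. The authors deposited log2 ratios, with 1 value per probe and array. Their formula, filters and normalization are not given in the sources used here. Column medians were -0.17, -0.15 and -0.15. Intensities were not used here, so signal over background is unknown and the 3 arrays limit the precision.

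Gene symbols came from the platform annotation (1 symbol for 18794 of 22575 probes, none for 3781), and systematic names from RefSeq R64, used for names and gene order. Tag sets A and B were defined by an offset of 10971 probe identifiers, at which all 9397 pairs of named probes shared a gene. The 36 values at a ratio of 999999, none in a member, were left out. The 210 at the lowest ratio, 0.01, were kept, 5 of them in members. The deposited ratios were multiples of 0.01, so that values at or near the lowest ratio are coarse.

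Values were centred per array and tag set, averaged over spots, then tags. limma 3.58.1 (R 4.3.3; lmFit on an intercept, eBayes, two-sided, Benjamini-Hochberg) tested 5204 strains with a value on all 3 arrays. The code was tested on simulated data. Plots used Python 3.11.15, pandas 2.3.3, numpy 2.4.6 and matplotlib 3.10.9.

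Members and lists were chosen with earlier results of these data known, and essentiality is from textbook knowledge. All members are named. Tag values are given for nonessential members, called members, those with tags of opposite sign and those at the lowest ratio. Up to 4 called strains per direction are named from the other lists. Other strains (RPB9, RAD23, DSK2) were named after their values were seen. Alternatives were no centring, centring per array, median spots, single tags, the tag nearer to 0, other handling of extreme values, at least 2 arrays, 5-FOA as a covariate, and leaving out each experiment.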

Additional observations from a re-analysis of the deposited data

How the results depend on the processing

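The 11 calls (1 positive, 10 negative) numbered 0 without any 1 experiment (0 to 0 in total and on each side), as did those of all strains, whose smallest adjusted p was 0.0584 to 0.0758. With 5-FOA as a covariate 4 calls remained (1 positive, 3 negative), as with the tag value nearer to 0 (1 and 3), where RPN2 turned to 0.11. Tag set A alone gave 6 (2 and 4) and tag set B alone 6 (1 and 5). Positive calls numbered 2 with at least 2 arrays or with the second probe pair of RPN9 and BLM10, and 3 with both tags on all arrays. The last 2 settings, and the first probe pair, were chosen after seeing the data. The essential median was -1.07 without centring, -1.05 with at least 2 arrays or both tags on all arrays, -0.87 without the lowest ratio, -0.68 and -0.74 in tag sets A and B, -0.58 with the tag nearer to 0, and -1.21 to -0.87 without 1 experiment. The nonessential median was -0.16 without centring, 0.26 and -0.18 in tag sets A and B, -0.11 with the first probe pair, -0.82 in subunits alone, and -0.060 to 0.090 without 1 experiment. The difference was -1.06 with at least 2 arrays or both tags, -0.79 with the first probe pair, -0.56 in tag set B, -0.63 with the tag nearer to 0, -0.078 against subunits alone, and -1.30 to -0.85 without 1 experiment. The causes were not tested.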
